A study of Homo sapiens with 24 samples.

Results

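The troponin and myosin heavy chain genes described here are TNNT1, TNNT2, TNNT3, TNNC1, TNNI2, MYH3, MYH4, MYH9, MYH10 and MYH14, which are 10 of the 23368 genes in the count table. They were chosen by gene family, starting from the higher TNNT2 and lower MYH4 counts of inhibitor-treated cells. Those 2 differences chose the set and are therefore given as a description without a test. The cells were AGS, an established human gastric adenocarcinoma line labelled as wild type, and all 6 groups were harvested at 24 h. The groups were a control labelled as receiving no treatment, PI103 at 0.7 µM (an inhibitor of PI3 kinase and mTOR), PD0325901 at 0.035 µM (a MEK inhibitor), (5Z)-7-oxozeaenol at 0.5 µM (a TAK1 inhibitor, called oxozeaenol below), and the 2 combinations of PI103 with either of the others. In both combinations the cells received 50% of the concentration of each compound used alone. Every group had 4 replicates, whose number the labels also give as the batch. The labels do not say whether the control received vehicle, and AGS cells are a single tumour line rather than muscle cells.

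In striated muscle, myosin heavy chains form the thick filament and pull on actin, while the troponin complex on the thin filament makes that pull depend on calcium. Troponin C binds calcium, troponin I blocks the actin-myosin contact, and troponin T ties the complex to tropomyosin, with separate genes for slow skeletal, fast skeletal and cardiac isoforms. Epithelial cells contract with the nonmuscle heavy chains MYH9, MYH10 and MYH14 instead, which encode myosin IIA, IIB and IIC.

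TNNT2 (cardiac troponin T) lies on the minus strand at chr1:201359008-201377762 and MYH4 (the fast skeletal heavy chain IIb) on the minus strand at chr17:10443290-10469559, in GRCh38 with GENCODE release 29. The other troponin genes are TNNT1 (slow skeletal troponin T, chr19:55132794-55149354), TNNC1 (troponin C of slow and cardiac muscle, chr3:52451102-52454070), TNNT3 (fast skeletal troponin T, chr11:1919562-1938706) and TNNI2 (fast skeletal troponin I, chr11:1838989-1841680). MYH3, the embryonic heavy chain, lies at chr17:10628526-10657309. The nonmuscle genes lie at chr22:36281277-36388067 (MYH9), chr17:8474205-8630761 (MYH10) and chr19:50188186-50310544 (MYH14).

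The 250 bases upstream of the start of TNNT2, MYH4 and TNNT1 are shown because TNNT2 and MYH4 chose the set and TNNT1 was called in every comparison with control. They are from RefSeq, GRCh38.p14, each on the gene's own minus strand, at chr1:201377681-201377930, chr17:10469560-10469809 and chr19:55149207-55149456. Capitals mark the motif CATTCC, the core of the M-CAT element bound by TEAD factors and known from cardiac troponin T promoters, or TATAAA, the TATA box. GENCODE also has transcripts that begin inside the TNNT2 and TNNT1 windows.
TNNT2: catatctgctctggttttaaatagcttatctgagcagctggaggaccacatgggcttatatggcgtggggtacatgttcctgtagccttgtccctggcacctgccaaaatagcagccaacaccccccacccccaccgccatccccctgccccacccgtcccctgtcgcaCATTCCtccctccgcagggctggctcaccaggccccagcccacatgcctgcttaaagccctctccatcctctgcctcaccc
MYH4: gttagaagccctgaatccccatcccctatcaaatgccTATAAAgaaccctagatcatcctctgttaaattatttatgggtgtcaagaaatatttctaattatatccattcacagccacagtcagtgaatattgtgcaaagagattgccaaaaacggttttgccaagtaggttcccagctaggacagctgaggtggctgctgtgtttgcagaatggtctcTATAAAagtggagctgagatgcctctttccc
TNNT1: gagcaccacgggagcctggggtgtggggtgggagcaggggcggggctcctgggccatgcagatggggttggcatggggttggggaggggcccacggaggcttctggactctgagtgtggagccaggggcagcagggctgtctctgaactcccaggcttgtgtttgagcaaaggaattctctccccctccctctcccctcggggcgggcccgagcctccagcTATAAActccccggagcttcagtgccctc

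TNNT2 had 1 CATTCC, 81 bases before the start. MYH4 had TATAAA at 213 and 31 bases before the start, and TNNT1 had it at 29. CATTCC occurred on either strand in 11.9% and TATAAA in 10.7% of the 35116 RefSeq windows of that length. Outside the sequences printed, CATTCC was also found in the windows of MYH9 (70 bases before the start) and MYH10 (203 bases). A RefSeq window was matched for 6 of the 10 genes, all but TNNC1, TNNI2, TNNT3 and MYH3. None of the 6 held the AP-1 motif TGANTCA, the CArG box or the MEF2 box, which 6.57%, 1.16% and 0.515% of all windows held. These are matches of letters on either strand, and no binding was measured.

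How much of a gene's transcript is identical to part of another gene was read from the GENCODE transcripts. Reads that lie wholly in a stretch repeated elsewhere in the genome lack a unique alignment and were not counted to a gene. Of the positions in the MYH4 transcript, 13.6% began a stretch of 50 bases found in another gene, and 3.38% began one of 100 bases. The partners were its neighbours in the skeletal myosin cluster on chromosome 17, with 7.64% of positions shared with MYH1, 5.16% with MYH2, 3.30% with MYH13, 2.48% with MYH8 and 0.62% with MYH3 at 50 bases. The longest identical run was the following coding stretch of 221 bases, common to MYH4 and MYH1, which spans exons 17 to 20 of the 40 of MYH4 (chr17:10455287-10456490, minus strand, introns left out) and is shown because reads inside it cannot be assigned to one of the pair.
MYH4 and MYH1: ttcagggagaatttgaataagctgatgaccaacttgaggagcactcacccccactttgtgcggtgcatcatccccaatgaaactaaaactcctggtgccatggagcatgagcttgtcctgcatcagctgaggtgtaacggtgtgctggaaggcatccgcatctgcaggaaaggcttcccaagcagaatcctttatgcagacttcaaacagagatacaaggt

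The same measure was 5.40% for MYH14, nearly all of it with the antisense gene AC008655.1 (5.33%), and 3.92% for MYH3. It was 0.781% for TNNT2, with LAD1, and 0 for TNNT1, TNNT3, TNNC1 and TNNI2. AC008655.1 overlaps MYH14 at the same place in the genome, over 457 bases of exon on the opposite strand. What MYH14 shares with AC008655.1, and TNNT2 with LAD1, is thus overlap and not a stretch repeated elsewhere. LAD1, the gene of the basement membrane protein ladinin, overlaps TNNT2 on the same strand over 81 bases of exon, which is 1.12% of the exon length of TNNT2.

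Libraries held 38057638 to 84226380 counts in genes, and no pair of replicates was alike within sampling noise. Levels are given as CPM, the counts per 1000000 counts of a library size scaled by TMM, and each value with ± is a mean with SD over 4 libraries. Of the 8 genes besides TNNT2 and MYH4, 6 passed the filter on low counts and were tested. A change was called at an adjusted p under 0.05 in the quasi-likelihood test of edgeR, adjusted over 13947 genes by Benjamini and Hochberg, and every adjusted p for a gene is from that test. The 5 comparisons with control share the same 4 control libraries, so they are not independent of each other. The epithelial markers EPCAM, KRT8, KRT18, KRT19 and CLDN4 were all expressed, with summed levels of 4604 to 7511 CPM, whereas the endothelial markers PECAM1, CDH5, VWF and KDR were all under 1 CPM on average in every group.

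TNNT2 was near the limit of detection in control cells and high in every group given PD0325901 or oxozeaenol. Its levels in the control libraries were 0.146, 0.205, 0.318 and 0.433 CPM (9 to 33 counts), and with PI103 they were 1.20, 1.07, 0.840 and 0.905 CPM. With PD0325901 they were 8.12, 11.4, 7.48 and 6.90 CPM, and with oxozeaenol 12.6, 12.02, 9.82 and 14.7 CPM. Every treated library was above every control library, and the PI103 libraries lay apart from the other treated ones, between 0.840 and 1.20 CPM. In the combination of PI103 with oxozeaenol the levels were 13.5, 11.6, 11.8 and 12.95 CPM, and in that with PD0325901 they were 10.9, 19.3, 9.52 and 12.0 CPM. The groups given PD0325901, oxozeaenol or a combination overlapped with their neighbours in the order of levels. In bulk RNA, more cells with TNNT2 and more TNNT2 RNA per cell cannot be told apart.

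The mean level of TNNT2 was 0.275 ± 0.127 CPM in control, 1.01 ± 0.163 CPM with PI103, 8.49 ± 2.03 CPM with PD0325901 and 12.3 ± 1.99 CPM with oxozeaenol. It was 12.5 ± 0.901 CPM with PI103 and oxozeaenol and 12.9 ± 4.39 CPM with PI103 and PD0325901. On the log2 scale the differences from control were 1.81 (SE 0.295), 4.88 (SE 0.265), 5.42 (SE 0.266), 5.44 (SE 0.266) and 5.49 (SE 0.266) in that order of treatments. Of all 13947 genes tested, 48.9%, 49.0%, 42.2%, 52.6% and 56.9% also had groups that did not overlap in these comparisons. That share was counted for comparisons with control only, and it stands beside every lack of overlap with control in the CPM of a gene below. Per kb of exon, the level of TNNT2 was 0.0379 ± 0.0175 CPM in control, where TNNT1 had 33.4 ± 2.64 CPM and TNNC1 10.6 ± 2.26 CPM. With oxozeaenol it was 1.69 ± 0.274 CPM per kb of exon, still below TNNT1 (45.7 ± 4.93) and TNNC1 (64.2 ± 11.4). The exon length of TNNT2 counts every annotated isoform, so its level per kb is low on this scale. Per kb of coding transcript, the level with oxozeaenol was 9.23 ± 1.497 CPM for TNNT2, 85.4 ± 9.20 CPM for TNNT1 and 103.1 ± 18.3 CPM for TNNC1.

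TNNC1, the calcium-binding subunit that works with TNNT2 in the heart and with TNNT1 in slow muscle, had the same order of mean levels among the single agents. In control its levels were 9.81, 13.6, 10.7 and 15.5 CPM, and with PI103 they were 13.4, 16.01, 13.7 and 16.5 CPM, so these groups overlapped. With PD0325901 the levels of TNNC1 were 44.6, 63.8, 56.9 and 63.2 CPM, and with oxozeaenol 55.9, 86.7, 79.8 and 77.5 CPM. All of these libraries were above all control and PI103 libraries. The share of all tested genes whose groups did not overlap was 49.0% and 42.2% against control, and was not counted against PI103. TNNC1 rose by 2.21 on the log2 scale with PD0325901 (SE 0.202, adjusted p 2.51e-09) and by 2.60 with oxozeaenol (SE 0.204, adjusted p 4.39e-10). With PI103 the difference was 0.27 (SE 0.197, adjusted p 0.269) and was not called. In the combinations the mean was 43.7 ± 2.89 CPM with oxozeaenol and 43.3 ± 17.3 CPM with PD0325901, against 12.4 ± 2.63 CPM in control, rises of 1.82 (adjusted p 5.68e-08) and 1.80 (adjusted p 3.50e-08).

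TNNT1, the slow skeletal troponin T, was well expressed in control cells and rose in all 5 treatments. Its levels were 79.3, 67.7, 67.9 and 75.3 CPM in control, 152.8, 148.4, 142.4 and 134.9 CPM with PI103, and 140.7, 169.5, 153.7 and 131.0 CPM with PD0325901. No library of either treated group overlapped with control. With oxozeaenol the levels were 106.1, 108.0, 98.8 and 84.4 CPM, the lowest of the treated groups but above every control library. In the combinations they were 154.6, 127.6, 132.3 and 119.9 CPM with oxozeaenol and 195.0, 232.5, 161.0 and 153.7 CPM with PD0325901. The log2 rises of TNNT1 were 1.00 with PI103 (SE 0.114, adjusted p 7.20e-08), 1.04 with PD0325901 (SE 0.114, adjusted p 2.40e-08) and 0.45 with oxozeaenol (SE 0.114, adjusted p 0.00166). They were 0.88 and 1.36 in the combinations with oxozeaenol and PD0325901 (adjusted p 3.63e-07 and 1.57e-10). TNNT1 was thus called with PI103 alone, where TNNC1 was not.

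The fast-muscle troponins had few counts in every library. TNNI2 had 1, 1, 6 and 2 counts in the control libraries and 42, 37, 31, 51 and 31 counts in all over the treated groups, in the order of treatments above. It was called higher in all 5 comparisons, with log2 differences of 1.63 to 2.47 (adjusted p 0.00117 to 0.0309). However, TNNI2 reached the filter's 0.17 CPM in 0 control libraries and in 1 or 2 libraries of each treated group, so it was tested only because treated libraries were high, and no weight can be put on these calls. In the combination of PI103 with PD0325901 its levels overlapped with control. This call did not hold without control replicate 1 (adjusted p 0.0784), control replicate 2 (0.0703), control replicate 4 (0.0741) or combination replicate 1 (0.253). TNNT3 had 10 counts in all, in 6 of the 24 libraries, and 0 counts in control. A count of 0 allows a level of up to 0.0356 CPM in the deepest and 0.0788 CPM in the shallowest library, by counting error only, and TNNT3 failed the filter.

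**Figure D1:**
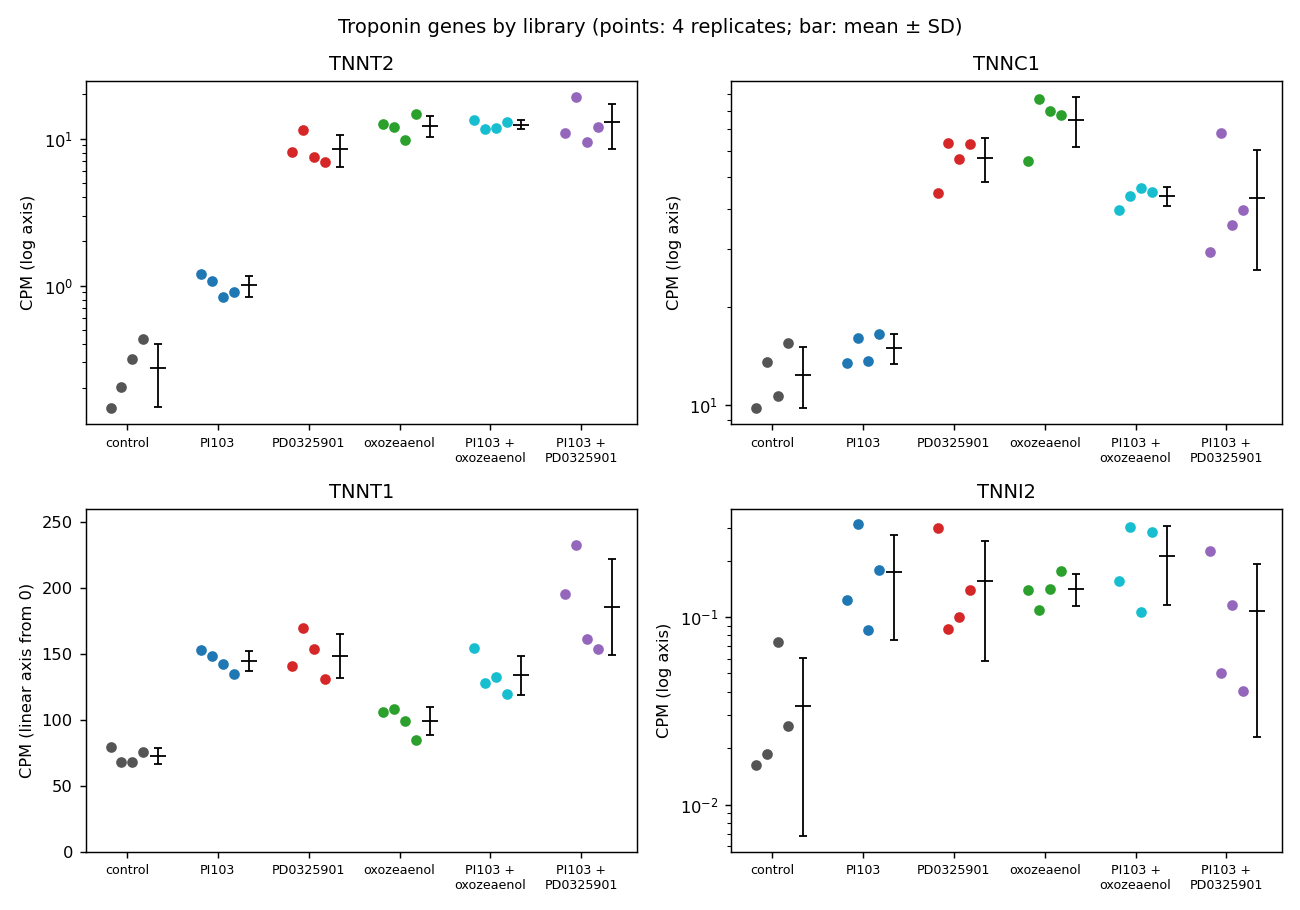
Levels of TNNT2, TNNC1, TNNT1 and TNNI2 in CPM for each of 24 libraries, by group, with the mean and SD beside the points (log axes except for TNNT1, whose axis is linear from 0). TNNT2 and TNNC1 were high in the 4 groups given PD0325901 or oxozeaenol, alone or with PI103, while TNNT1 was also high with PI103 alone.

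MYH4 went the other way, with its highest counts in control and its lowest in the combination of PI103 with PD0325901. The control libraries held 2978, 2213, 2407 and 3592 MYH4 counts, and the PI103 libraries 124, 121, 63 and 121. The PD0325901 libraries held 45, 22, 17 and 42 counts, and the oxozeaenol libraries 169, 439, 45 and 33. Every treated library was below every control library, and the oxozeaenol group had the widest spread among its own replicates relative to its mean. The libraries with PI103 and oxozeaenol held 88, 148, 29 and 65 counts, and those with PI103 and PD0325901 held 4, 4, 3 and 1. The last group did not overlap with any other, but how many of all tested genes did so was counted only against control.

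The mean level of MYH4 was 41.5 ± 8.63 CPM in control, 1.76 ± 0.461 CPM with PI103, 0.529 ± 0.270 CPM with PD0325901 and 2.70 ± 2.42 CPM with oxozeaenol. It was 1.34 ± 0.819 CPM with PI103 and oxozeaenol and 0.0452 ± 0.0195 CPM with PI103 and PD0325901. From oxozeaenol down through PI103, PI103 with oxozeaenol and PD0325901, each group overlapped with the next in the order of levels. The differences from control on the log2 scale were -4.56 (SE 0.484), -6.32 (SE 0.550), -3.89 (SE 0.464), -4.95 (SE 0.497) and -9.74 (SE 0.730). From the counts summed over each group, the level was 22.0-fold lower with PI103, 75.4-fold with PD0325901, 12.9-fold with oxozeaenol and 29.3-fold with PI103 and oxozeaenol. It was 803-fold lower with PI103 and PD0325901, with an exact 95% interval of 460 to 1555 that covers counting error only, since it rests on 12 treated counts. Without oxozeaenol replicate 2, which had 439 counts, the difference for oxozeaenol was -4.67.

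The neighbours of MYH4 in the skeletal heavy chain cluster, which share sequence with it, had few counts and were lower in the treated groups too. MYH13, the heavy chain of extraocular muscle, had 231 counts over the 4 control libraries and 15, 1, 8, 15 and 1 in the treated groups, in the order of treatments used above. MYH8, the perinatal heavy chain, had 91 in control and 6, 1, 5, 5 and 0. The skeletal heavy chains MYH2 and MYH1 (IIa and IIx) had 57 and 30 in control, at most 8 and 5 in any treated group, and 0 and 0 in the combination of PI103 with PD0325901. In control these sums were 2.06% (MYH13), 0.813% (MYH8), 0.509% (MYH2) and 0.268% (MYH1) of the MYH4 sum. The share of their transcript positions found in MYH4 at 50 bases was 3.27%, 2.47%, 4.90% and 7.63%, in that order of genes. Since reads without a unique alignment were not counted, this share does not measure how many of their counts came from MYH4 transcripts. That was not tested. Of the counts of MYH13, 11 of 15 with PI103 and 11 of 15 with PI103 and oxozeaenol came from replicate 2, which leaves 4 and 4 counts without it. MYH13 and MYH8, which lies 21339 bases from MYH4, were called lower in all 5 comparisons. MYH8 reached the filter's 0.17 CPM in 4 control and 0 treated libraries and MYH13 in 4 control and 2 treated libraries, so both were tested only because control was high, and no weight can be put on these calls.

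MYH3, the embryonic heavy chain on the other side of MYH4 at a distance of 158966 bases, was not called in any of the 14 comparisons. Its group means lay between 0.186 and 0.268 CPM, with 3 to 29 counts per library. In the comparisons with control its log2 differences were between -0.32 (SE 0.509, adjusted p 0.615) and 0.23 (SE 0.483, adjusted p 0.693). Next to TNNT2, LAD1 fell with PD0325901 (log2 difference -1.06, adjusted p 7.68e-07), oxozeaenol (-0.56, adjusted p 0.00213) and both combinations (-0.41, adjusted p 0.0168, and -1.24, adjusted p 5.03e-08), where TNNT2 was higher. With PI103, where TNNT2 was higher too, LAD1 was not called (-0.12, adjusted p 0.514). IGFN1, 130055 bases away on the other side, was called in 1 of 5 comparisons (PI103, -1.39, adjusted p 0.0358).

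**Figure D2:**
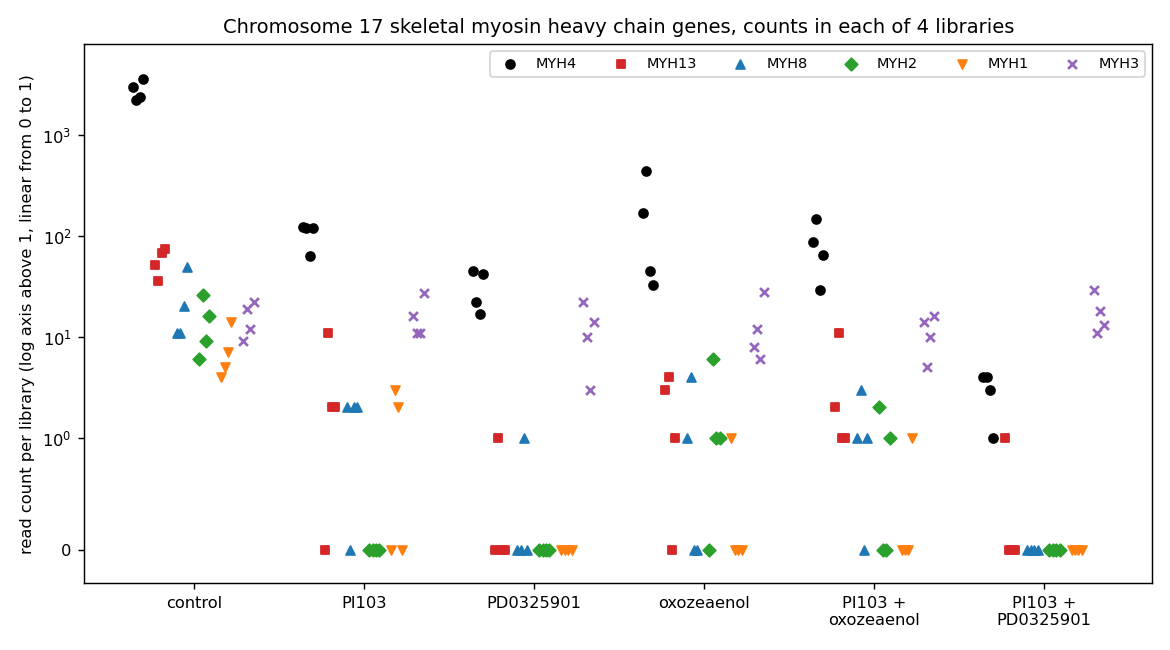
Read counts of MYH4, MYH13, MYH8, MYH2, MYH1 and MYH3 in each of the 4 libraries of a group, on an axis that is logarithmic above 1 and linear from 0 to 1. MYH4 had 2213 to 3592 counts per library in control and 1 to 4 with PI103 and PD0325901, whereas MYH3 stayed between 3 and 29 counts throughout.

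Among the nonmuscle heavy chains, MYH14 rose in 4 treatments and MYH9 in 0, and their proportions in every treated library lay outside the range of control. MYH14 (myosin IIC) had 167.7 to 203.1 CPM in control, 272.2 to 329.6 CPM with PI103 and 292.0 to 365.9 CPM with PD0325901, with no overlap. It rose by 0.71 on the log2 scale with PI103 (SE 0.0919, adjusted p 5.00e-07) and by 0.82 with PD0325901 (SE 0.0920, adjusted p 3.11e-08). It also rose by 0.52 with PI103 and oxozeaenol (adjusted p 2.85e-05) and by 1.04 with PI103 and PD0325901 (adjusted p 3.48e-10), to 380.6 ± 42.1 CPM. With oxozeaenol MYH14 had 200 to 227.9 CPM, which overlapped with control, and its difference of 0.21 (SE 0.0915, adjusted p 0.0530) was not called. It was called with the batch as a block (adjusted p 0.0440), with scaling by total counts (0.0405), and without control replicate 1 (0.0284) or oxozeaenol replicate 2 (0.0394).

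MYH9 (myosin IIA), the most abundant member per kb of exon in control (59.7 ± 4.37 CPM against 17.8 ± 1.41 CPM for MYH14), had 491.6 to 583.0 CPM in control libraries. With oxozeaenol it had 357.8 to 436.6 CPM, all below control, and fell by 0.49 on the log2 scale (SE 0.0997, adjusted p 0.000217). With PI103 and oxozeaenol it had 416.5 to 466.1 CPM and fell by 0.29 (SE 0.0996, adjusted p 0.0148), a call lost without control replicate 4 (adjusted p 0.0514) and with scaling by total counts (0.0700). With PI103, PD0325901 and both together its log2 differences were -0.08, -0.11 and 0.01 (adjusted p 0.535, 0.338 and 0.918). MYH10 (myosin IIB) had 19 counts in all, in 7 libraries, and failed the filter.

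The share of MYH14 in the counts per kb of exon of MYH9, MYH10 and MYH14 together does not depend on library scaling. It was 24.1%, 23.2%, 22.8% and 21.8% in the control libraries, against 32.96%, 33.6%, 34.5% and 34.7% with PI103. It was 34.8%, 36.4%, 39.1% and 35.5% with PD0325901, and 31.2%, 32.1%, 33.01% and 34.6% with oxozeaenol. Every treated library was above every control library, those with oxozeaenol included. In the combinations the MYH14 share was 34.7%, 32.9%, 35.1% and 34.96% with oxozeaenol and 36.8%, 39.3%, 37.8% and 37.4% with PD0325901. The mean share was higher than in control (22.99% ± 0.960) by 10.9 percentage points with PI103, 13.5 with PD0325901 and 9.74 with oxozeaenol. In the combinations it was higher by 11.4 (oxozeaenol) and 14.8 (PD0325901). In an exact two-sided permutation test of each difference p was 0.0286, the smallest that 4 against 4 libraries allow, and 0.0429 after Benjamini-Hochberg adjustment over 15 tests. Those tests hold each difference both as MYH14 and as its mirror MYH9, besides MYH10, so the adjusted p depends on this choice of tests. Paired by batch, the exact test of 4 pairs cannot go below 0.125, and its adjusted p was 0.188. The share of MYH10 was at most 0.0178% in any library (exact permutation p 1 in all 5 comparisons), so the share of MYH9 mirrored that of MYH14. Part of the MYH14 transcript is shared with its antisense gene, and whether counting used strand is not given in the sources used here.

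**Figure D3:**
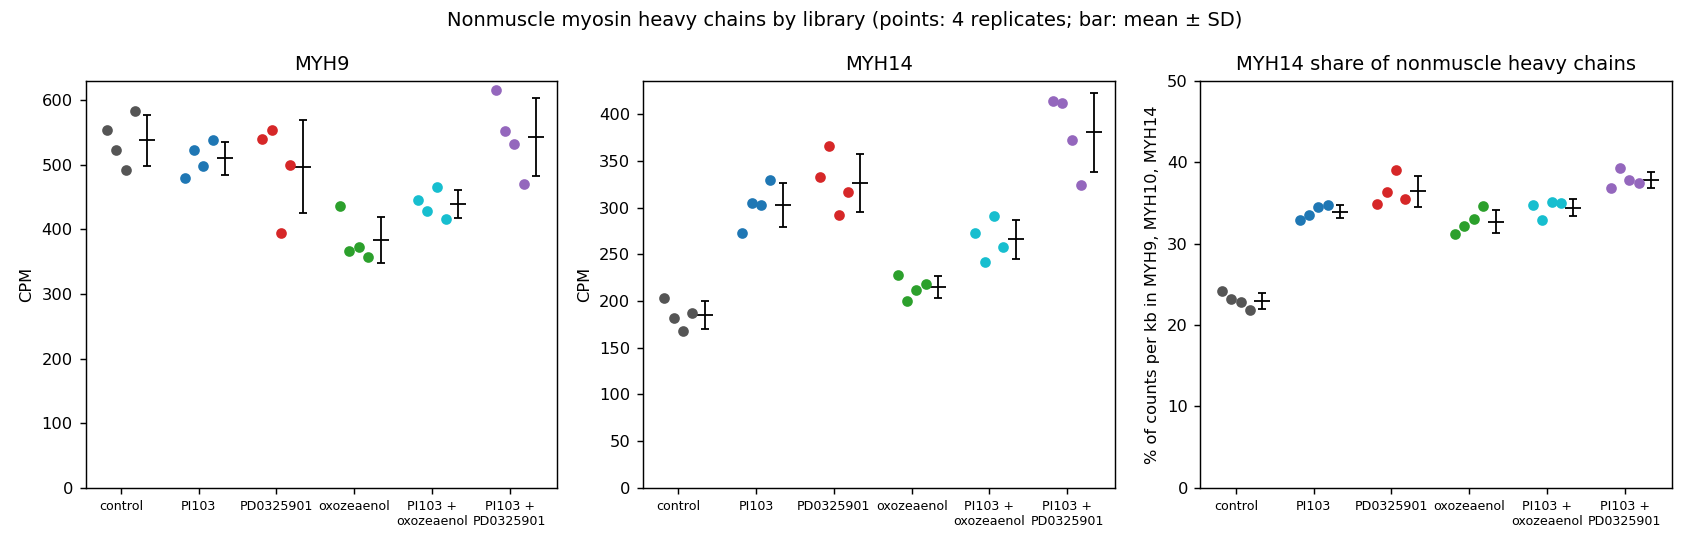
CPM of MYH9 and MYH14, and the MYH14 share in the counts per kb of exon of the 3 nonmuscle heavy chain genes, for each of 24 libraries with group mean and SD, on linear axes from 0. The MYH14 share was 21.8% to 24.1% in control libraries and 31.2% or more in all treated ones, while MYH9 was lower in the groups with oxozeaenol.

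Counted over the 6 tested members, 3 were called against control with PI103, all higher, where 51.4% of all tested genes were called in either direction. The count was 4 with PD0325901, all higher (58.6% of all genes), and 4 with oxozeaenol, of which 3 were higher and MYH9 lower (51.9%). It was 5 with PI103 and oxozeaenol, 4 higher and MYH9 lower (55.6%), and 4 with PI103 and PD0325901, all higher (64.8%). TNNI2 is one of the called genes in each comparison. These counts are near the share of all genes called, and so are no result about the members as a set.

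**Figure D4:**
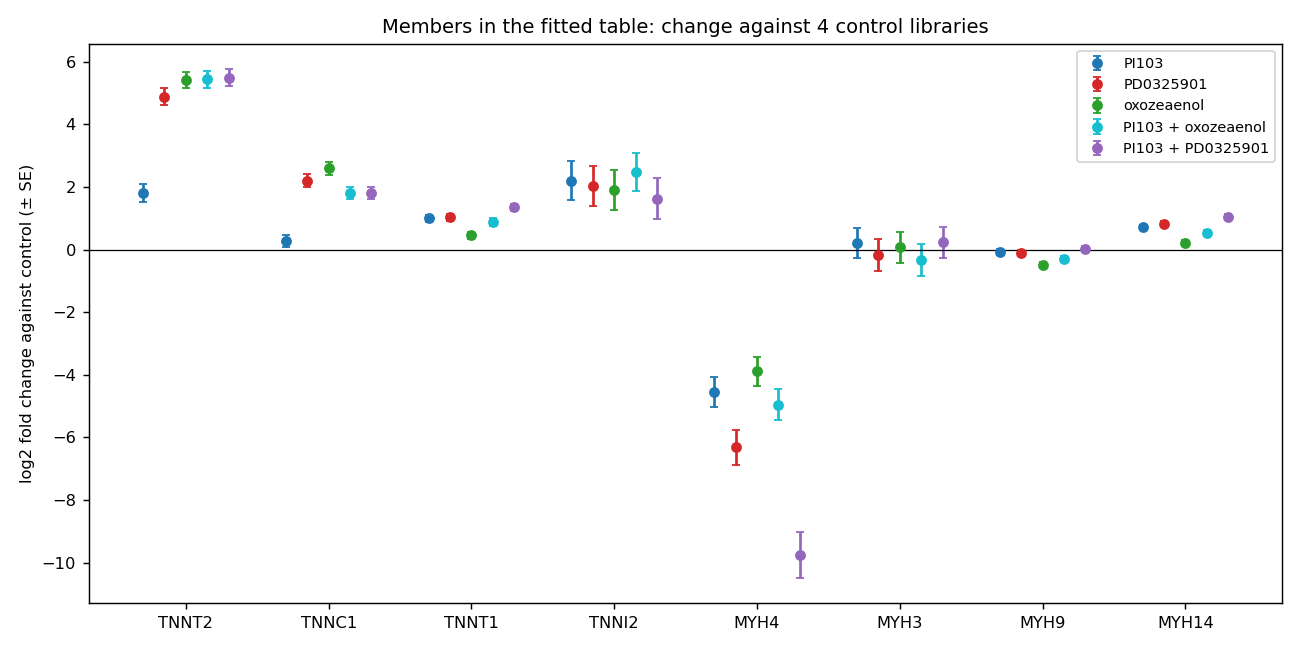
Fitted log2 difference from the 4 control libraries, with SE, for the 8 members that passed the filter, by treatment. TNNT2 and MYH4, which chose the set, lie on opposite sides of 0, from 1.81 to 5.49 and from -3.89 to -9.74, and MYH3 lies around 0. With PI103, TNNI2 lies above TNNT2 (2.21 against 1.81).

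The single agents were then compared with each other, to ask which members separated them. Between PD0325901 and PI103, 1 of the 6 tested members was called (44.5% of all tested genes), TNNC1, which was higher with PD0325901 by 1.94 on the log2 scale (SE 0.200, adjusted p 3.85e-08). Between oxozeaenol and PI103, 4 were called (43.1% of all genes). TNNC1 was higher with oxozeaenol by 2.33 (SE 0.202, adjusted p 3.72e-09), and TNNT1, MYH14 and MYH9 were lower, with differences of -0.54, -0.49 and -0.41 (adjusted p 0.000408, 0.000107 and 0.00170). Between oxozeaenol and PD0325901, 3 were called, all lower with oxozeaenol (28.5% of all genes). These were MYH14 (-0.61, adjusted p 2.98e-05), TNNT1 (-0.58, adjusted p 0.000513) and MYH9 (-0.37, adjusted p 0.00682, or 0.0534 when only these 2 groups were fitted). TNNC1 was higher with oxozeaenol than with PD0325901 by 0.39 (SE 0.191), which was not called (adjusted p 0.125) but was with the batch as a block (0.0203).

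The combinations were compared with their single agents, although the concentrations differ. Against PI103 alone, the combination with oxozeaenol had 1 tested member called (18.3% of all tested genes), TNNC1, higher by 1.55 (SE 0.198, adjusted p 4.74e-06). Against oxozeaenol alone it had 3 (14.9% of all genes). TNNC1 fell by 0.78 (SE 0.192, adjusted p 0.00809), and its libraries, 39.6 to 46.2 CPM, were all below those with oxozeaenol alone. The share of all genes for which that held was not counted. TNNT1 was higher by 0.43 (adjusted p 0.0116), or not called without combination replicate 1 (adjusted p 0.0853). MYH14 was higher by 0.31 (adjusted p 0.0225), and this call was lost without combination replicate 1 (0.0769) or 3 (0.0957) or oxozeaenol replicate 2 (0.0822) or 3 (0.0580). TNNT2 differed by 0.02 (SE 0.193) from oxozeaenol alone, which is a difference between -0.07 and 0.12 when any 1 library is left out, and it was 3.63 (SE 0.230) above PI103 alone.

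Against PI103 alone, the combination with PD0325901 had 3 tested members called, all higher (38.7% of all genes). These were TNNC1 (1.54, SE 0.198, adjusted p 1.98e-06), TNNT1 (0.36, SE 0.113, adjusted p 0.0136, or 0.108 without combination replicate 2) and MYH14 (0.33, SE 0.0915, adjusted p 0.00532). Against PD0325901 alone 1 was called, TNNT1 (18.1% of all genes), higher by 0.32 (SE 0.113, adjusted p 0.0497). That call was lost without PD0325901 replicate 1, 3 or 4 (adjusted p 0.149, 0.0877 and 0.145), without combination replicate 1 or 2 (0.122 and 0.218), and with DESeq2's size factors, no filter or only these groups fitted (0.0540, 0.0627 and 0.168). TNNC1 differed by -0.40 (SE 0.191, adjusted p 0.146) and was called lower with the batch as a block (0.0160) or without combination replicate 2 (0.00206), whose 68.4 CPM stood above the other 3 libraries at 29.4 to 39.5 CPM. MYH14 differed by 0.22 (adjusted p 0.0932) and was called higher without combination replicate 4 (0.0389). MYH4 was lower, by a log2 difference of -3.43 (SE 0.998) from PD0325901 alone and of -5.19 (SE 0.834) from PI103 alone. The groups overlapped in neither case, but the share of all genes for which this held was not counted.

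Set against the mean of the log2 levels of its single agents, the combination with oxozeaenol had 0 of 6 tested members called by edgeR (3.98% of all genes). TNNC1 was the 1 member with an unadjusted p under 0.05 (DESeq2 also called 0), with a difference of 0.38 (SE 0.164, adjusted p 0.235, or 0.0261 with the batch as a block and 0.0259 with only these groups fitted). The combination with PD0325901 had 3 called, all higher (22.0% of all genes), which were TNNC1 (0.57, SE 0.164, adjusted p 0.0161), TNNT1 (0.34, SE 0.0966, adjusted p 0.0137) and MYH14 (0.28, SE 0.0783, adjusted p 0.0134). All 3 calls were lost without combination replicate 2 (adjusted p 0.228, 0.148 and 0.0765), and that of MYH14 also without combination replicate 1 (0.0586). Leaving out that library therefore ends every call of members beyond the mean of the single agents.

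Other genes of the contractile apparatus were counted in lists by function, with the 5 comparisons with control in the order PI103, PD0325901, oxozeaenol, and the combinations with oxozeaenol and with PD0325901. Of all tested genes, 26.2%, 28.7%, 25.7%, 27.7% and 32.2% were called higher and 25.2%, 29.9%, 26.1%, 27.9% and 32.6% lower. A gene that reached the filter's 0.17 CPM in 0 libraries of the lower group was tested only because the other libraries were high, which fixed its direction, so the list counts and medians are descriptions. Of 17 myosin light chain and light chain kinase genes, 15 were tested, and 7, 11, 10, 11 and 11 were called higher, with 0 called lower by edgeR, at an unadjusted p under 0.05 too. Without the filter on low counts, or by DESeq2, MYLK was lower with PI103 and oxozeaenol, as the 1 such gene. Of these 50 calls, 8 were of MYL2, MYL3 or MYL4 with 0 control libraries at the filter's level. The list's median log2 differences were 0.35, 0.81, 0.68, 0.79 and 0.89, where the medians over all tested genes were 0.02, -0.02, 0.02, 0.02 and 0.01. MYL6, the essential light chain that pairs with nonmuscle heavy chains, had a mean of 864.5 CPM in control and 1388 to 1629 CPM in the treated groups. It rose in all 5 (adjusted p 1.14e-07 to 1.18e-05), and is named here after its values were seen, outside the rule for naming list genes. MYL7, the regulatory light chain of the cardiac atrium, rose most with PI103 and PD0325901, by 2.41 (SE 0.181, adjusted p 1.72e-11), from 1.43 to 1.61 CPM in control libraries to 5.76 to 10.6 CPM. MYLPF, the regulatory light chain of fast muscle, rose by 1.78 with oxozeaenol (SE 0.247, adjusted p 1.43e-06), from 0.844 ± 0.161 to 2.89 ± 0.955 CPM. MYL3, the ventricular light chain, had 0 counts in all control libraries and 3, 17, 41, 31 and 25 counts over the treated groups. With MYL3 set to the bound that a floor of 3 counts per group allows, or left out with PI103, the list medians were 0.34, 0.81, 0.68, 0.79 and 0.89.

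Of 27 Z-disc, M-band and thick filament genes, 10 were tested, and 7 were called higher with PI103 and 6 with each other treatment, with 1 lower in each. Of the 31 higher calls, 5 had 0 control libraries at the filter's level, and 3 of the 5 lower calls had 0 treated ones. The list medians were 0.77, 1.37, 0.73, 1.04 and 1.70. TTN, which encodes titin, the spring that links Z-disc and M-band, had 0.130, 0.186, 0.147 and 0.105 CPM in control and 7.88, 8.26, 6.67 and 17.4 CPM with oxozeaenol. That is a rise of 6.15 on the log2 scale (SE 0.421, adjusted p 3.55e-11). However, TTN reached the filter's 0.17 CPM in 1 control library and in 4 with oxozeaenol. It thus passed the filter through treated libraries, where it was high, and no weight can be put on this call. The oxozeaenol libraries were also above all libraries with PI103 (0.411 to 0.856 CPM) and PD0325901 (1.19 to 3.43 CPM). The share of all genes for which that held was not counted. TRIM63, the muscle ubiquitin ligase MuRF1, rose by 3.28 with PI103 and PD0325901 (SE 0.342, adjusted p 5.80e-09), from 0.194 ± 0.0671 to 1.95 ± 0.787 CPM. TRIM63 reached the filter's level in 2 control libraries and in 4 of that combination, so it too passed through treated libraries and its call carries no weight. The gene called lower in all 5 was FLNC, the muscle filamin, with 0.515 CPM in control and 0.0565 to 0.195 CPM in the treated groups, named here after its values were seen. It reached the filter's 0.17 CPM in 4 control libraries, 1 with PI103, 1 with oxozeaenol and 0 in the other treated groups. FLNC was thus tested only because control was high, and no weight can be put on these calls. Without control replicate 1 it was not called with PI103 (0 lower), and without oxozeaenol replicate 1, or with the batch as a block for PD0325901, 2 genes were lower.

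**Figure D5:**
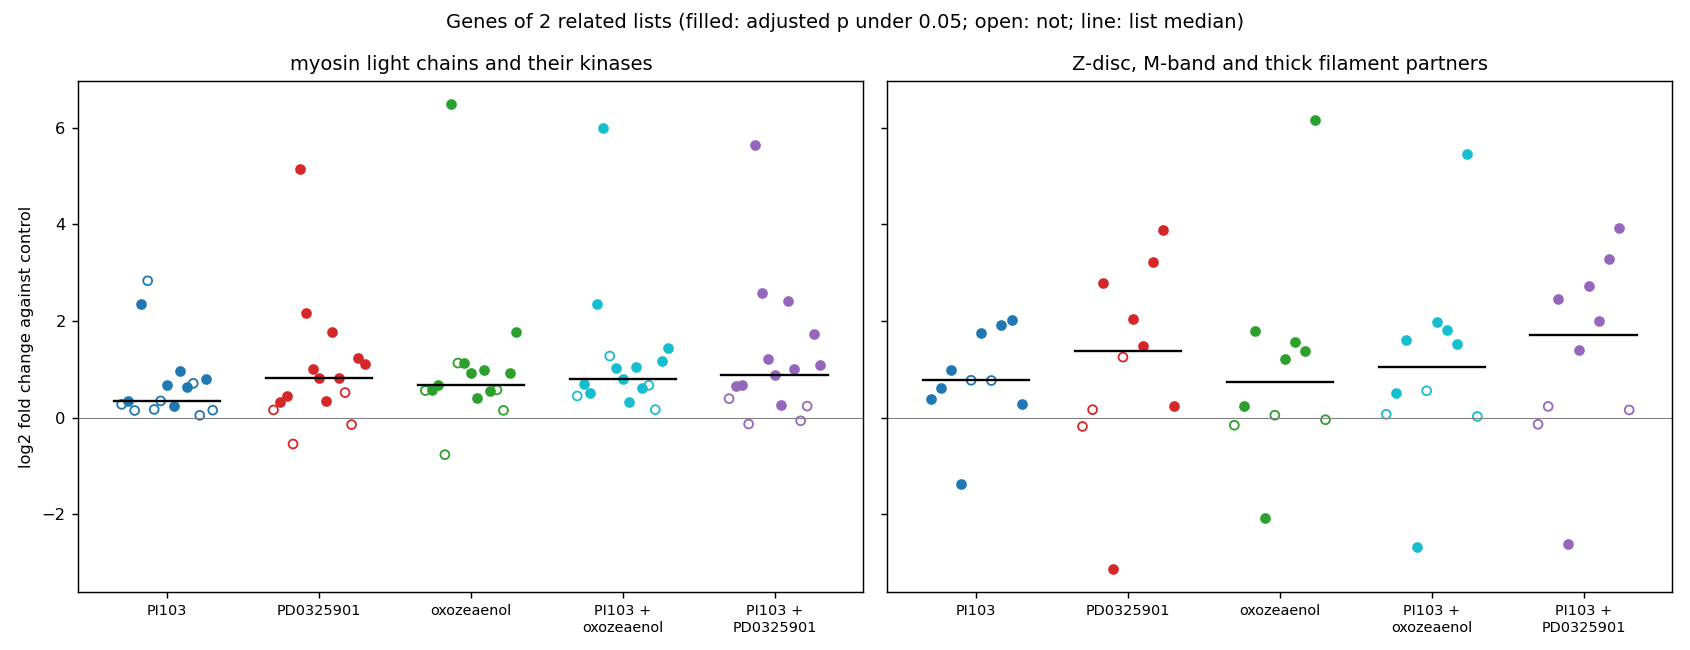
Fitted log2 differences from control of the 15 tested light chain and kinase genes and the 10 tested Z-disc, M-band and thick filament genes, by treatment, with filled points for adjusted p under 0.05 and a line at the list median. Light chain medians lay between 0.35 and 0.89, and the topmost filled points there are MYL3, whose control counts were 0, so that its fitted value is no measure of size.

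Of 18 other troponin and thin filament genes, 10 were tested, with 3, 2, 3, 4 and 4 called higher and 1, 3, 3, 2 and 2 lower. TMOD1, a tropomodulin that caps thin filaments, rose by 1.69 with PD0325901 (SE 0.166, adjusted p 3.50e-09), from 2.08 ± 0.480 to 6.73 ± 1.51 CPM. Without control replicate 3 or PI103 replicate 4, 0 were lower with PI103, and without control replicate 4, 1 was lower with PI103 and oxozeaenol. With scaling by total counts 5 were higher and 0 lower with PI103, and 1 was lower in each combination. With no filter on low counts 2 were higher with PI103 and oxozeaenol, and with only the groups compared 2 were lower with PI103. The tropomyosins went different ways, TPM4 rising by 0.65 with PI103 and oxozeaenol (adjusted p 1.59e-07) and TPM1, with a change of -0.49, falling with oxozeaenol (adjusted p 8.24e-05). TMOD3 had a change of -0.61 with oxozeaenol (adjusted p 6.32e-05). Of 10 other heavy chain genes 5 were tested, with 2, 1, 2, 1 and 1 called higher and 2 lower in each comparison. The lower genes were MYH8 and MYH13, whose direction the filter fixed, so that this count is no result. Of the 7 higher calls over the 5 comparisons, 5 were of MYH7B or MYH16 with 0 control libraries at the filter's level. With no filter on low counts 4 were lower in each, as by DESeq2 in each but PI103, and without control replicate 3 or 4, 1 was. Leaving out any 1 library other than control replicate 4 left 0 or 1 higher with PI103. With oxozeaenol 1 higher call was left without replicate 4, and 0 were left with PI103 and oxozeaenol without control replicate 1 or 3 or combination replicate 1 or 4, and with PI103 and PD0325901 without combination replicate 2. With only the groups compared, 1 was higher with PI103, 1 with oxozeaenol and 0 in either combination. The 1 higher call with PD0325901 held in every alternative. It was MYH15, which rose by 2.72 with PD0325901 (SE 0.548, adjusted p 0.000149). Leaving out replicate 2 gave 1.75, since that library had 2.95 CPM against 0.412 to 0.713 CPM in the others.

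Of 24 nonmuscle and smooth muscle contractility genes 23 were tested, with 9, 5, 4, 5 and 4 called higher and 3, 9, 6, 4 and 5 lower. Without control replicate 4, 5 were lower with PI103, and with scaling by total counts 2 and 3 were lower in the combinations with oxozeaenol and PD0325901. TAGLN, the actin-binding transgelin, had a change of -1.27 with oxozeaenol (SE 0.184, adjusted p 3.95e-06). With PI103 it went the other way, with 292.2 to 398.2 CPM against 130.2 to 196.3 CPM in control. PPP1R12B, a myosin phosphatase subunit, rose by 1.15 with PI103 and PD0325901 (adjusted p 1.80e-06), and ACTA2, smooth muscle actin, by 1.00 with PD0325901 (adjusted p 0.000115).

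Of 22 muscle transcription factor genes 11 were tested, with 3, 2, 2, 2 and 4 called higher and 3, 6, 5, 4 and 3 lower. TEAD2, a factor of the family that binds the M-CAT motif, rose by 0.72 with PD0325901 (adjusted p 7.63e-09), and GATA4, a factor of heart and gut, by 0.65 (adjusted p 2.33e-07). TBX5, a heart and limb factor, had a change of -1.56 with PI103 (SE 0.186, adjusted p 1.40e-07), from 11.01 ± 0.644 to 3.73 ± 0.726 CPM. MKL1, a coactivator of serum response factor, had a change of -1.11 with oxozeaenol (SE 0.111, adjusted p 8.14e-09).

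Of 17 muscle calcium handling and energy genes 8 were tested, with 1, 6, 3, 2 and 5 called higher and 1 lower in each. Of the 17 higher calls, 4 (MB and CACNA1S) had 0 control libraries at the filter's level. SLN, which encodes sarcolipin, an inhibitor of the sarcoplasmic calcium pump, had 0.0162 to 0.183 CPM in control and 3.02, 10.4, 3.50 and 3.19 CPM with PD0325901. Its log2 rise there was 5.46 (SE 0.535, adjusted p 6.85e-09), or 4.85 without replicate 2. SLN reached the filter's 0.17 CPM in 1 control library and in 4 with PD0325901. It thus passed the filter mainly through libraries where it was high, and no weight can be put on this call. With PI103 and PD0325901 SLN had 2.04 to 5.71 CPM, while every library without PD0325901 had at most 0.208 CPM. MB, which encodes myoglobin, rose by 5.05 with PD0325901 (SE 0.517, adjusted p 9.26e-09), from 0.0525 to 0.147 CPM in control to 1.91 to 5.75 CPM. MB reached the filter's 0.17 CPM in 0 control libraries, so its direction was fixed and no weight can be put on this call. With PI103 and oxozeaenol 2 were lower when any 1 library other than control replicate 3 was left out, by DESeq2 and with no filter, and with PI103 alone 2 were higher without control replicate 2 and with scaling by total counts. With no filter on low counts 5 were higher with oxozeaenol. RYR2, the cardiac calcium release channel, was called lower in all 5, with a change of -2.42 with PI103 and oxozeaenol (SE 0.344, adjusted p 1.57e-06). No list was tested against other genes.

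The markers of skeletal and cardiac muscle (MYOG, CKM, ACTA1, DES, MYL1, MYL2, MB and CASQ1) had summed levels of 1.81 to 2.60 CPM in control, 4.27 to 4.60 CPM with PI103 and 12.2 to 28.0 CPM with PD0325901. The sums were 6.75 to 8.64 CPM with oxozeaenol, and 6.45 to 7.04 and 9.17 to 21.8 CPM in the combinations with oxozeaenol and PD0325901. Only DES, the intermediate filament protein desmin, reached a mean of 1 CPM in all groups, and MB did so in both groups with PD0325901. MYOG, the myogenic factor myogenin, was at 0 in every group, and MYL1, a fast-muscle light chain, in all but the combination of PI103 with oxozeaenol. Of the 6 fibroblast markers, COL1A1 was the only one at a mean of 1 CPM or more. Their summed levels were 14.3 to 17.4 CPM in control, 32.4 to 34.4 CPM with PI103, 18.2 to 22.4 CPM with PD0325901 and 8.18 to 10.0 CPM with oxozeaenol, and 9.22 to 11.2 and 21.8 to 25.8 CPM in the combinations with oxozeaenol and PD0325901. The 4 blood cell markers summed to 0.643 to 1.00 CPM in control, 0.695 to 1.301 CPM with PI103, 1.13 to 3.59 CPM with PD0325901 and 0.958 to 1.42 CPM with oxozeaenol, and to 0.635 to 1.19 and 1.33 to 2.18 CPM in the combinations. CD68, a macrophage marker, was the only one of them to reach a mean of 1 CPM, in 4 treated groups. The part of other cell types in the results was not tested.

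Over the 24 libraries, which share the 6 groups, the genes whose log2 CPM were most like those of TNNT2 were LYPD2 (Pearson's r 0.978), FOLR1, the folate receptor (0.971), and S100A10 (0.963). Those most like MYH4 were KCTD20 (0.956), SLC38A2, an amino acid transporter (0.946), and INPP1, an inositol phosphatase (0.946). LYPD2, like TNNT2, was low in control (0.0740 CPM) and with PI103 (0.164 CPM) and at 2.93 to 4.38 CPM in the other groups. SLC38A2 went from 776.7 CPM in control to 146.9 CPM with PI103 and PD0325901, the lowest of its groups, as MYH4 did on a far larger scale. Among the members, the pattern of TNNC1 was the most like that of TNNT2 (r 0.912).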

How the data were processed

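RNA of 24 AGS samples was sequenced from mRNA libraries made with a stranded kit, per the labels' protocols. The authors deposited raw read counts, as whole numbers, for each gene symbol, aligned to GRCh38 per the submitters' processing notes. The aligner, the counting program, its strand setting and the annotation are not given in the sources used here. The table's last 5 rows tally unassigned reads (10.7% to 16.5% of all reads per library, of which 4.64% to 6.06% of all reads lacked a unique alignment and 1.57% to 2.01% were ambiguous). They entered neither the library sizes nor the tests. Reads without a unique alignment were thus not counted to a gene.

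Counts were filtered with filterByExpr by group, scaled by TMM and modelled in edgeR 4.0.16 under R 4.3.3. Dispersions were estimated robustly (estimateDisp, glmQLFit), and the 24 libraries had 1 coefficient for each group. Two-sided quasi-likelihood F tests gave 14 contrasts, each adjusted by Benjamini-Hochberg over 13947 genes. The SE of a log2 difference is its size over the square root of F. Shares were tested with exact permutation tests (scipy 1.17.1). Exon lengths, overlaps and shared stretches came from GENCODE release 29, promoters from RefSeq. The script was tested on simulated data.

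Since the batch label equals the replicate number, it pairs the samples. Deviations from group means correlated at a mean of 0.12 over 60 pairs with the same number (47 positive) and -0.04 over 180 pairs with different numbers. The labels do not say that replicates were separate cultures, so p-values measure only the spread between these samples, which may be technical. The members and the gene lists were chosen with earlier results of these data known. Besides the members, the text names per list the 2 largest called rises and falls with a mean of at least 1 CPM in either group (1 such gene is not reported here), the 3 genes most correlated with TNNT2 and with MYH4 (log2 CPM, prior count 2), and their nearest tested neighbours. Some list genes, such as MYL6, MYL3 and FLNC, are named outside this rule. Alternatives were DESeq2's size factors and test (1.42.0), total counts, no filter, the batch as a block, only the groups compared, and leaving out each library.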

Additional observations from a re-analysis of the deposited data

Results flagged for a closer look

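Each value named here stood apart from the other 3 libraries of its group by more than Dixon's 95% limit for the gap over the range. That happened in 12 of 78 groups of values examined. All flags but that of MYH3 came from counts in 1 library and 0 in the others, where the gap is the whole range. The chance rate of about 1 in 20 holds for continuous values, and MYH10 was flagged by both CPM and share, so the 2 rates cannot be compared. MYH3 had 0.494 CPM (28 counts) in oxozeaenol replicate 4, against 0.139 to 0.170 CPM in the others. TNNT3 had 0.0188 CPM in PD0325901 replicate 1 and 0 in the other libraries of that group. MYH10 had counts in 1 library and 0 in the others of 5 groups. Those libraries were control replicate 3 (0.0489 CPM, and a share of 0.00767% of the nonmuscle heavy chains), PI103 replicate 3 (0.0343 CPM, 0.00451%), oxozeaenol replicate 2 (0.0958 CPM, 0.0178%), PI103 with oxozeaenol replicate 1 (0.0258 CPM, 0.00378%) and PI103 with PD0325901 replicate 4 (0.0202 CPM, 0.00269%). All MYH10 and TNNT3 values rest on a few reads.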

How the results depend on the processing

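The counts of tested members called against control stayed within 1.5 times of the values reported under every alternative, at 3 with PI103, 4 with PD0325901, 4 to 5 with oxozeaenol, 4 to 5 with PI103 and oxozeaenol and 3 to 4 with PI103 and PD0325901 when any 1 library was left out. Between treatments the ranges were 1 (PD0325901 against PI103), 4 (oxozeaenol against PI103), 3 (oxozeaenol against PD0325901), 1 and 1 to 3 (PI103 with oxozeaenol against PI103 and against oxozeaenol), 2 to 3 and 0 to 2 (PI103 with PD0325901 against PI103 and against PD0325901), and 0 and 0 to 3 for the combinations against the mean of their agents. For PI103 with oxozeaenol against PI103, 2 were called with only these groups fitted. For PI103 with PD0325901 against PD0325901, 0 were called with DESeq2's size factors, with no filter or with only these groups fitted, and 2 with the batch as a block. For PI103 with oxozeaenol against the mean of its agents, 1 was called with the block or with only these groups. The cause was not tested. Paired by batch, the share of MYH14 had differences of 10.95, 13.47, 9.742, 11.42 and 14.84 points and that of MYH9 of -10.95, -13.47, -9.744, -11.42 and -14.84, with an adjusted p of 0.188 in the exact sign-flip permutation test, too few pairs to pass 0.05. When 1 library was left out, the adjusted p of each of these differences was 0.0857 (exact permutation test, whose smallest unadjusted p for 3 libraries against 4 is 0.0571). The difference of MYH14 ranged from 10.56 to 11.33 points with PI103, 12.58 to 14.01 with PD0325901, 9.12 to 10.26 with oxozeaenol, 11.03 to 11.93 with PI103 and oxozeaenol and 14.36 to 15.22 with PI103 and PD0325901. That of MYH9 ranged, in the same order, from -11.33 to -10.55, -14.01 to -12.58, -10.27 to -9.124, -11.93 to -11.03 and -15.22 to -14.36 points. The share of MYH10, which was not called, had ranges of -0.001918 to 0.001127, -0.001261 to 0.001624, -0.001918 to 0.00444, -0.001918 to 0.000944 and -0.001918 to 0.000672 points. The block changed no other call than those given in the report.

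Signs changed only for differences that were not called or, for TNNT2 and MYH4, not tested. With the block MYH3 with oxozeaenol was at -0.0019, and with no filter MYH9 with PI103 and PD0325901 was at -0.008. Leaving out 1 library, the log2 differences of MYH3 ranged from -0.14 to 0.45 (PI103 against control), -0.67 to 0.20 (PD0325901 against control), -0.55 to 0.32 (oxozeaenol against control), -0.76 to 0.22 (oxozeaenol against PI103), -0.38 to 0.75 (oxozeaenol against PD0325901), -0.71 to 0.23 (PI103 with oxozeaenol against oxozeaenol) and -0.18 to 0.37 (PI103 with PD0325901 against PI103). For MYH9 they ranged from -0.0574 to 0.0741 (PI103 with PD0325901 against control), -0.0659 to 0.0592 (PD0325901 against PI103) and -0.0385 to 0.0340 (PI103 with oxozeaenol against the mean of its agents). For TNNI2 they ranged from -0.63 to 0.24 (PD0325901 against PI103), -0.52 to 0.12 (oxozeaenol against PI103), -0.33 to 0.34 (oxozeaenol against PD0325901) and -1.07 to 0.0635 (PI103 with PD0325901 against PD0325901). For MYH4 the range was -0.11 to 1.00 (oxozeaenol against PI103), and for TNNT2 -0.0684 to 0.12 (PI103 with oxozeaenol against oxozeaenol). Scaling by total counts moved the median of all genes by up to 0.13. Genes with few counts, TNNI2, TNNT3, MYH3 and MYH10, are limited by depth.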
